A study of Mus musculus with 25 samples.

Results

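Akkermansia was followed in the fecal bacteria of C57BL/6 mice through full-length 16S rRNA gene amplicons read on a PacBio instrument. The genus was taken as every ASV, a sequence variant told apart from others in the amplicon reads, whose sixth taxonomic rank reads Akkermansia. This rule found 1 of the 1555 ASVs in the table. The 25 libraries formed 5 groups of 5. Sham was the sham-operated control, and OVX stood for ovariectomy, the removal of the ovaries that models estrogen deficiency. The groups OVX+GEX, OVX+PBS and OVX+FMT carried OVX as well. PBS is a buffered saline and FMT a transplant of fecal microbiota, with donors that the labels do not name. GEX is not spelled out in the labels, while the design text speaks of a traditional medicine. The labels give no age, dose, cage or litter, and their sex field reads Male in every group, which is at odds with ovariectomy, so the sex is not stated here.

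Akkermansia is a genus of anaerobes of the phylum Verrucomicrobia that lives in the mucus layer of the gut. Its best known species, Akkermansia muciniphila, uses the glycans of mucin as a source of carbon and nitrogen and releases acetate and propionate. Sugars and acids set free from mucin can feed other bacteria, among them butyrate formers that have been grown with it in coculture. It is studied in mice and humans for its links to the gut barrier, to body weight and to bone.

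The ASV was placed in Verrucomicrobiae, Verrucomicrobiales and Akkermansiaceae and carried the species name Akkermansia muciniphila, so its taxonomy fits the label of a mucin degrader; mucin use itself was not measured. It held 8170 counts, 2.72% of the 300831 counts in the table, and was the 13th most abundant ASV. Summed by genus, Akkermansia ranked 9 of 110 genera. It was detected in all 25 libraries. The 8 genera with more counts were split over 4 to 162 ASVs each, whereas Akkermansia was a single ASV, and changes among strains with other sequences therefore could not be followed. Of the 27 genera with 1 ASV it was the largest and held 60.4% of their counts, followed by Bacteroides with 4414 counts. The phylum had 1 further ASV, named Persicirhabdus, with 4 counts in OVX+FMT replicate 4.

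Library totals ran from 8498 to 22404 counts. They fell into 2 size classes: 20 libraries held at most 11252 counts and 5 held at least 17367. The 5 deep libraries were Sham replicates 3 and 4, OVX+PBS replicate 1 and OVX+FMT replicates 1 and 5; OVX and OVX+GEX had none. Each level below is a share of a library's counts, so fewer Akkermansia cells and more cells of other bacteria cannot be told apart. Akkermansia counts of 32 to 1314 per library gave 95% Wilson intervals that were narrow beside the differences between libraries, and such intervals cover counting error only.

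The share of Akkermansia varied widely from library to library. It ran from 0.284% in OVX replicate 1 to 8.34% in OVX+FMT replicate 3, a 29.3-fold range, with a median of 1.88%. Within groups the pooled SD was 2.11 percentage points. Akkermansia was among the 10 most abundant genera in 14 libraries and ranked between 4 and 27.

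In Sham the 5 libraries held 1.76%, 1.88%, 7.57%, 1.22% and 4.27% Akkermansia. Replicates 3 and 5 stood above the other 3, and the mean was 3.34% ± 2.64 (SD, n = 5). In both it was the most abundant ASV of the library (replicate 3, 1314 counts; Wilson 95% interval 7.18% to 7.97%).

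In OVX the shares were 0.284%, 2.12%, 1.69%, 5.01% and 2.08%, with a mean of 2.24% ± 1.72 (SD, n = 5). Replicates 2, 3 and 5 lay close together, replicate 4 lay above them and replicate 1 far below. Replicate 1 had 32 Akkermansia counts of 11252 (Wilson 95% interval 0.202% to 0.401%). The 17.6-fold range within OVX was the widest of the 5 groups.

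In OVX+GEX the shares were 3.89%, 1.27%, 3.33%, 1.93% and 1.22%, with a mean of 2.33% ± 1.22 (SD, n = 5). Here the libraries lay closest in proportion, within a 3.20-fold range, and all of them fell inside the range of OVX.

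In OVX+PBS the shares were 3.08%, 1.88%, 1.85%, 0.514% and 0.725%, with a mean of 1.61% ± 1.03 (SD, n = 5). Replicates 4 and 5, with 44 and 64 Akkermansia counts, were among the 4 libraries of the study under 1%.

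In OVX+FMT the shares were 1.29%, 4.82%, 8.34%, 5.85% and 0.968%, with a mean of 4.25% ± 3.13 (SD, n = 5). The group split into 3 libraries between 4.82% and 8.34% and 2 libraries near 1%. The low pair, replicates 1 and 5, were also the 2 deep libraries of the group. In replicate 4 Akkermansia was the most abundant ASV.

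**Figure D1:**
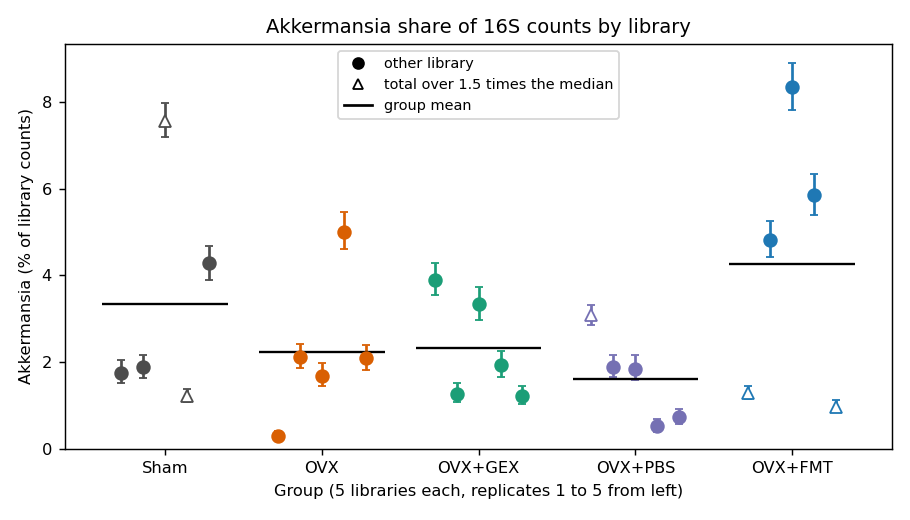
Akkermansia as a percentage of each library's counts, by group. Points are libraries with 95% Wilson intervals, open triangles are the 5 libraries with totals over 1.5 times the median, and lines are group means. All 5 groups overlap, and in OVX+FMT both triangles lie near 1% while the 3 circles lie at 4.82% or higher.

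By mean share the order was OVX+FMT, Sham, OVX+GEX, OVX and OVX+PBS. By median share it was OVX+FMT at 4.82%, then OVX at 2.08%, OVX+GEX at 1.93%, Sham at 1.88% and OVX+PBS at 1.85%, so 4 of the 5 groups had nearly the same middle library. For all 10 pairs of groups the difference in mean share was tested by exact permutation, two-sided, where the smallest p that 5 against 5 allows is 0.00794. No pair passed, with adjusted p-values over the 10 pairs of 0.619 to 0.944, and in none of the 10 did the groups separate without overlap. Few genera did: of 81 tested, at most 1 (1.23%) lay wholly above and at most 6 wholly below in any pair. The overlap is thus not particular to Akkermansia. Neighbours in the order of means gave exact p-values of 0.603 (OVX+FMT and Sham), 0.484 (Sham and OVX+GEX), 0.944 (OVX+GEX and OVX) and 0.532 (OVX and OVX+PBS). Nothing in the labels says that libraries of a group came from separate cages or litters. The p-values treat the libraries as independent, which could not be checked.

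Whether estrogen deficiency changed Akkermansia was asked first. Its mean share was 1.10 percentage points lower in OVX than in Sham (SE 1.41; exact permutation p = 0.508, adjusted p = 0.665), and 3 of 5 OVX libraries lay above the Sham median. On genus counts scaled by the trimmed mean of M-values (TMM), edgeR's quasi-likelihood test gave a log2 fold change of -0.21 (SE 0.60, adjusted p = 0.872 over 81 genera). The 95% interval of the fold ran from 0.370 to 2.02, spanning 1. With plain library totals in place of TMM scaling the value was -0.58, while the median genus moved from 0.15 to -0.22. The difference in mean share rested on Sham replicate 3: without it the shares differed by -0.0439 points (exact permutation p = 0.968). In this comparison edgeR called 0% of the genera, with 9 at an unadjusted p under 0.05.

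OVX+GEX against OVX asked how Akkermansia stood with GEX after ovariectomy. The means differed by 0.0915 points (SE 0.943; exact permutation p = 0.944), the smallest difference of the 10 pairs. The edgeR log2 fold change was 0.15 (SE 0.60, adjusted p = 0.979), with a fold interval of 0.473 to 2.59 and 0% of genera called. The interval reached a fold of 2.59 and does not show that the levels were alike.

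OVX+FMT against OVX+PBS set transplanted mice against the saline group, and it held the largest difference. The mean share was 2.64 points higher in OVX+FMT (SE 1.47; 4.25% and 1.61%, a ratio of 2.64), with 3 of 5 OVX+FMT libraries above every OVX+PBS library and 2 below the OVX+PBS median. The exact permutation p was 0.127 and the adjusted p 0.619. The edgeR log2 fold change was 1.28 (SE 0.61), a fold interval of 1.02 to 5.74, with an unadjusted p of 0.0446 and an adjusted p of 0.308; Akkermansia ranked 10 of 81 genera by p, and 0% of genera were called. The median genus also had a higher estimate in OVX+FMT, by 0.62 on the log2 scale after TMM scaling and by 0.68 with plain library totals. That median depended on the filter and the scaling. It was 0.20 with a filter of 10 counts in 5 libraries (Akkermansia 1.21) and 0.35 with DESeq2 size factors (Akkermansia 1.07). On centred log-ratios, described in the next paragraph, it was -0.01 (Akkermansia 0.88).

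OVX+PBS against OVX compared the saline group with ovariectomy alone. Akkermansia was 0.627 points lower on average in OVX+PBS (SE 0.898; exact permutation p = 0.532), and 1 of 5 OVX+PBS libraries lay above the OVX median. The edgeR log2 fold change was -0.32 (SE 0.60, adjusted p = 0.886; fold interval 0.343 to 1.88), with 0% of genera called and a median over genera of -0.47. On centred log-ratios, which set each genus against the mean log count of all genera in a library, the difference had the opposite sign, 0.26.

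The 3 treated groups were also set against Sham. By edgeR the log2 fold change of Akkermansia was -0.06 in OVX+GEX (fold interval 0.410 to 2.24, adjusted p = 0.977), -0.53 in OVX+PBS (0.296 to 1.62, adjusted p = 0.601) and 0.75 in OVX+FMT (0.716 to 3.94, adjusted p = 0.565). Genera called in the same comparisons made up 4.94%, 1.23% and 1.23% of the 81, and Akkermansia was not among them. With plain library totals the OVX+PBS value was -1.05, beside a median genus at -1.08 in place of -0.48. These comparisons share the Sham libraries, and 2 of the 3 values turned sign with the scaling. OVX+GEX came to 0.019 with TMMwsp and 0.28 on centred log-ratios, and OVX+PBS to 0.062 on centred log-ratios. Without Sham replicate 3 they were 0.52 and 0.059.

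The last 3 pairs were within the ovariectomized mice. Akkermansia had a log2 fold change of 0.96 (SE 0.60, adjusted p = 0.740) for OVX+FMT against OVX, 0.81 (SE 0.60, adjusted p = 0.568) for OVX+FMT against OVX+GEX, and -0.47 (SE 0.60, adjusted p = 0.706) for OVX+PBS against OVX+GEX, each by edgeR. In all 3, edgeR called 0% of genera. In the 7 comparisons with no edgeR call, 5 to 12 genera had an unadjusted p under 0.05, DESeq2 called 0 to 2 genera and limma on centred log-ratios 0 to 3.

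**Figure D2:**
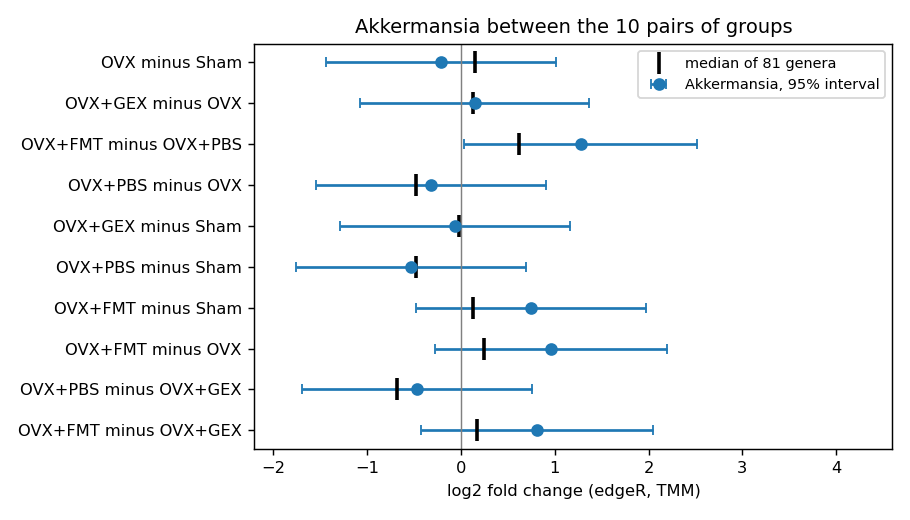
Log2 fold change of Akkermansia for the 10 pairs of groups, by edgeR with TMM. Points are estimates, bars 95% intervals, and black ticks the median estimate of the 81 genera tested. The interval lies above 0 for OVX+FMT against OVX+PBS alone, where the adjusted p is 0.308.

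Whether the effect of the transplant over its vehicle differed from that of GEX over untreated OVX was tested as a difference of the 2 contrasts, which share no library. The difference was 1.13 on the log2 scale (SE 0.85, edgeR adjusted p = 0.540), with 0% of genera called, 9 at an unadjusted p under 0.05. With the counts left at the level of ASVs, 379 ASVs were tested. The Akkermansia ASV had a log2 fold change of 1.40 (SE 0.68, adjusted p = 0.221) for OVX+FMT against OVX+PBS and -0.81 (SE 0.67, adjusted p = 0.783) for OVX against Sham. Its adjusted p was at least 0.221 in all 10 pairs and 0.562 for the difference of contrasts, where 2.11% of ASVs were called. For ASVs the share called was 1.06% for OVX+FMT against Sham, 0.264% for OVX+FMT against OVX+GEX and 0% for the other 8 pairs.

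Library size moved with the Akkermansia level in the OVX+FMT group, and the values without the 5 deep libraries are therefore given. Those 5 were the 2 lowest libraries of OVX+FMT, the highest of OVX+PBS, and the highest and the lowest of Sham. Leaving them out by itself widens the gap between OVX+FMT and OVX+PBS, and the p-values without them are a description. Across all 25 libraries the log2 share was not related to the library total (r = -0.05, permutation p = 0.818; rho = 0.00, permutation p = 1.0). The 5 deep libraries averaged 2.82% ± 2.78 and the other 20 averaged 2.74% ± 2.05. Within the 20, OVX+FMT held 6.34% ± 1.81 (SD, n = 3) and OVX+PBS 1.24% ± 0.725 (SD, n = 4), and every OVX+FMT library lay above every OVX+PBS library. The difference of 5.09 points had an exact permutation p of 0.0286, the smallest that 3 against 4 allows, and an adjusted p of 0.119; by edgeR the log2 fold change was 2.01 (unadjusted p = 0.00541, adjusted p = 0.400). The same separation was found for 8 of 81 genera, or 9.88%. Among the deep libraries the order was the other way, with 3.08% in the OVX+PBS library and 1.29% and 0.968% in the OVX+FMT libraries.

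In the same 20 libraries OVX+FMT also lay above every Sham library, by 3.70 points (exact permutation p = 0.10, the smallest that 3 against 3 allows; 4.94% of genera separated likewise). It lay above every OVX+GEX library, by 4.01 points (exact permutation p = 0.0179, adjusted p = 0.119; 2.47% of genera). It exceeded OVX by 4.10 points with overlap (exact permutation p = 0.0357, adjusted p = 0.119). The same 3 OVX+FMT libraries enter each of these comparisons. With the 2 lowest OVX+FMT libraries and the highest Sham library left out, these p-values are a description as well. The part of library size in the OVX+FMT values was not tested.

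Akkermansia shares its food source with other bacteria, and 12 further genera with members known to use mucin glycans were looked up. Of these, 6 had counts, and all 6 passed the filter on low counts. Duncaniella, of the Muribaculaceae, averaged 22.4% over all libraries; Bacteroides, a user of many host and plant glycans, 1.45%; Mediterraneibacter, which holds mucin-degrading clostridia, 0.495%; and Parabacteroides, a relative of Bacteroides, 0.414%. Mucispirillum, which lives in mucus, and Bifidobacterium were scarcer. Together they held 15.9% ± 6.88 in Sham, 25.3% ± 13.2 in OVX, 18.6% ± 16.8 in OVX+GEX, 39.5% ± 18.1 in OVX+PBS and 25.2% ± 11.1 in OVX+FMT (SD, n = 5). Most of each total was Duncaniella, with means of 13.2%, 23.3%, 16.5%, 36.2% and 22.6% in the same order. The totals thus follow 1 genus and not the list as a whole. Mediterraneibacter had its highest mean in Sham (0.867%) and its lowest in OVX+GEX (0.291%). In each of the 10 pairs 0 of the 6 passed by edgeR, which called 0% to 4.94% of the 81 genera per pair. For OVX+FMT against OVX+PBS, 2 had a higher and 4 a lower estimate, with a list median of -0.61 against 0.62 over all genera, and Akkermansia at 1.28. The 2 higher were Mucispirillum (0.19) and Bifidobacterium (8.27). The count and the list median thus include Bifidobacterium, which has the limit given below. The lowest adjusted p of the list was 0.0645, for Duncaniella in OVX+PBS against Sham (log2 fold change 2.33, SE 0.72), where Akkermansia was at -0.53. DESeq2, the fit with the replicate block and the fit of these 2 groups alone called Duncaniella there. In that comparison they called 7 of 81, 3 of 81 and 7 of 57 genera, against 1 of 81 (1.23%) in the edgeR fit reported here. Bifidobacterium, a user of milk and host glycans, had counts in 4 of 5 OVX+FMT libraries, in 1 of Sham and 1 of OVX+GEX, and in none of OVX+PBS or OVX. With counts in 6 libraries it passed the filter only through OVX+FMT, the group where it was high. The calls of Bifidobacterium below are therefore a description and lend no support. Limma on centred log-ratios called it for OVX+FMT against OVX+PBS, OVX and Sham. The edgeR fit reported here did not, but edgeR called it against Sham with TMMwsp and with these 2 groups alone, against OVX+PBS and OVX with no filter on low counts, and against all 3 without OVX+FMT replicate 4.

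Set against Bacteroides in the same library, Akkermansia was the more abundant of the 2 in 17 of 25 libraries. ASVs that the table names [Bacteroides], in brackets, are a separate name and were not included. The log2 ratio of their counts does not depend on what the remaining genera do. It was 1.29 ± 1.66 in Sham, 0.75 ± 1.98 in OVX, 1.73 ± 2.25 in OVX+GEX, -0.61 ± 1.65 in OVX+PBS and 1.17 ± 1.92 in OVX+FMT (SD, n = 5). Bacteroides exceeded Akkermansia in 3 of 5 OVX+PBS libraries, in 2 of OVX+FMT and in 1 of each other group. The largest difference was between OVX+PBS and OVX+GEX, where the ratio was lower in OVX+PBS (difference -2.35, exact permutation p = 0.119, adjusted p = 0.529). It was 1.79 higher in OVX+FMT than in OVX+PBS (exact permutation p = 0.159, adjusted p = 0.529) and lower in OVX+PBS than in Sham (difference -1.90, exact permutation p = 0.119, adjusted p = 0.529). No pair passed, and adjusted p-values ran from 0.529 to 0.937. Leaving out 1 library at a time, the difference between OVX+PBS and OVX+GEX ran from -3.04 to -1.70. The OVX+GEX mean included ratios of 4.29 and 3.79 in replicates 2 and 3, where Bacteroides held only 0.0601% and 0.236% of the counts. In OVX, replicate 1 stood at -2.67 while the other 4 lay between 1.14 and 2.49.

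**Figure D3:**
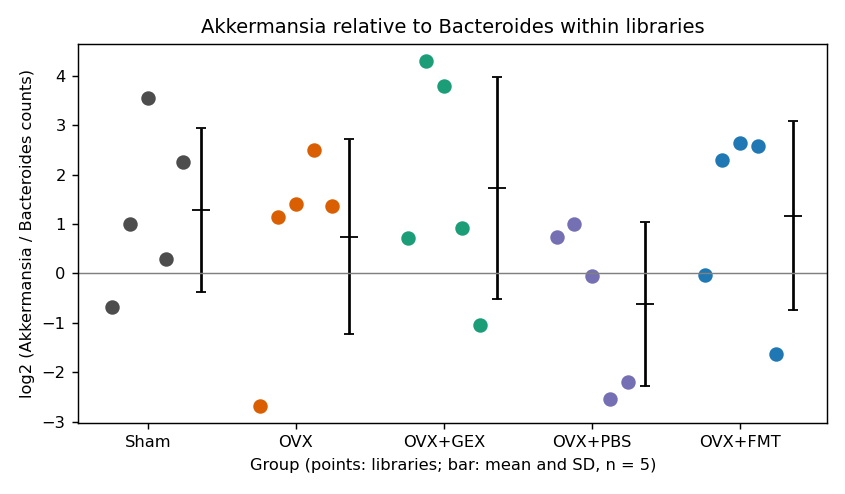
Log2 ratio of Akkermansia to Bacteroides counts, with 0.5 added to each, by group. Points are libraries (replicates 1 to 5 from the left) and the bars give mean and SD (n = 5). OVX replicate 1 lies at -2.67, and OVX+PBS is the group with a mean below 0.

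Across the 25 libraries the log2 share of Akkermansia was lower where Duncaniella made up more of the other counts (r = -0.58, permutation p = 0.0026, adjusted p = 0.0156 over 6 relations; rho = -0.43, permutation p = 0.0331, adjusted p = 0.0692). The relation was r = -0.56 after group means were removed, -0.60 without the 5 deep libraries and -0.41 without the 2 libraries farthest from the median Duncaniella share, OVX replicate 1 and OVX+PBS replicate 5. Both genera are counted in the same library total. With Duncaniella left out of the total on which Akkermansia was measured, r was -0.37 (permutation p = 0.0707) and rho -0.24 (permutation p = 0.239). Without the same 2 libraries r was -0.22. On that scale the coefficients kept their sign but were weaker, and neither permutation p was under 0.05. For Bacteroides the corresponding values were r = -0.45 (adjusted p = 0.0716) and, with Bacteroides left out of the total, r = -0.44 (permutation p = 0.0269, adjusted p = 0.0538 over the 2 genera); without the 2 farthest libraries, OVX+PBS replicates 4 and 5, the latter was -0.26.

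**Figure D4:**
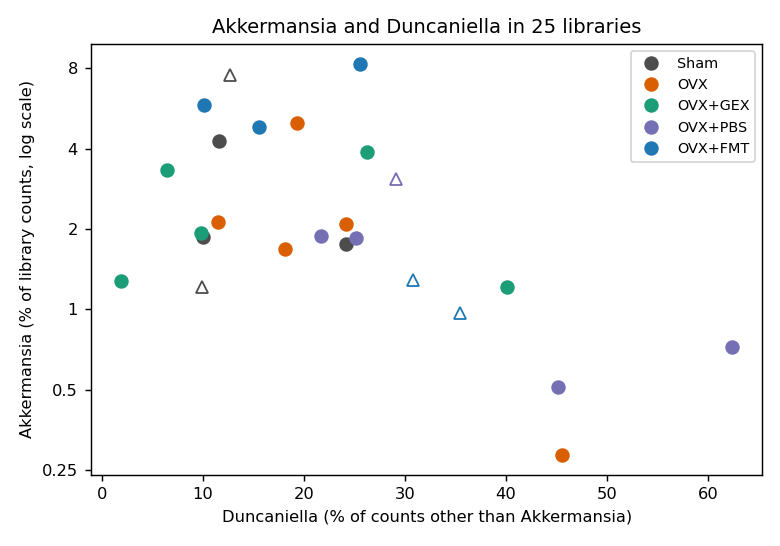
Akkermansia share of all counts (log scale) against the Duncaniella share of the counts other than Akkermansia. Each point is a library, coloured by group, with open triangles for the 5 deep libraries. The 3 libraries with the most Duncaniella, in OVX and OVX+PBS, hold at most 0.725% Akkermansia.

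Ligilactobacillus, the other leading genus, was not related to Akkermansia (r = 0.17, permutation p = 0.414; rho = 0.13, permutation p = 0.530). Diversity of the remaining community was computed with Akkermansia left out. Its Shannon index gave a positive coefficient with the log2 Akkermansia share (r = 0.41, permutation p = 0.0424, adjusted p = 0.0847; rho = 0.43, permutation p = 0.0334, adjusted p = 0.0692), and r was 0.30 without the 2 libraries farthest from the median index. ASV richness at 8334 reads gave r = 0.36 (permutation p = 0.0771, adjusted p = 0.116) and rho = 0.34 (permutation p = 0.102, adjusted p = 0.152). Neither passed after adjustment.

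Of 4 genera of butyrate formers that include coculture partners of Akkermansia or relatives of them, 2 had counts. Anaerostipes, which forms butyrate from lactate and acetate, averaged 1.00% ± 0.423 in Sham, 1.03% ± 0.700 in OVX, 1.23% ± 1.03 in OVX+GEX, 1.00% ± 0.540 in OVX+PBS and 0.248% ± 0.310 in OVX+FMT (SD, n = 5). Its lowest mean was in the group with the highest Akkermansia mean, with an edgeR log2 fold change of -1.83 for OVX+FMT against OVX+PBS (SE 0.88, unadjusted p = 0.0458, adjusted p = 0.308). Library by library the 2 genera were hardly related. Over the 25 libraries rho was -0.12 on centred log-ratios (r = -0.27), 0.01 with group means removed and -0.07 on plain shares. Roseburia, which forms butyrate from plant fibre and acetate, averaged 1.01% ± 0.516 in Sham and less in every ovariectomized group. Its means there were 0.623% ± 0.454 in OVX, 0.370% ± 0.112 in OVX+GEX, 0.258% ± 0.159 in OVX+PBS and 0.311% ± 0.182 in OVX+FMT. After TMM scaling its log2 fold change against Sham was -0.22 in OVX, -0.83 in OVX+GEX and -0.84 in OVX+FMT. For OVX+PBS against Sham it was -1.42 (SE 0.65, edgeR adjusted p = 0.215). Lower shares than in Sham were not particular to Roseburia. With plain library totals the median genus stood at -0.22 in OVX, -0.61 in OVX+GEX, -1.08 in OVX+PBS and -0.42 in OVX+FMT. In each of the 10 pairs 0 of the 2 butyrate formers passed by edgeR, DESeq2 or limma. Of all 81 genera edgeR called 0% to 4.94% per pair, DESeq2 0 to 7 genera and limma 0 to 3. At such rates 0 of 2 does not set these genera apart from others.

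Genera whose pattern was most like that of Akkermansia were sought among the other 80 tested, by Spearman's rho of centred log-ratios over the 25 libraries. The values had a median of 0.00, with quartiles at -0.15 and 0.14. Highest were Pseudoclostridium (0.49), Hydrogenispora (0.40) and Salimesophilobacter (0.40), and lowest were Aminipila (-0.59), Ornithinibacillus (-0.48) and Flavonifractor (-0.48). All 6 are scarce, with mean shares of 0.0121% to 0.107% and counts in 7 to 22 libraries. The points share library depth and the common denominator, and the values are a description. Aminipila had no counts in OVX and a mean of 0.0365% in Sham. In sparse counts such values are weak, and the order changed with the scale. With group means removed, the highest were Ihubacter (0.44) and Schaedlerella (0.41) and the lowest Aminipila (-0.54) and Flavonifractor (-0.43). On plain shares the highest was Pseudoclostridium (0.52), and the lowest were the abundant Duncaniella (-0.49) and Bacteroides (-0.45). Ihubacter and Schaedlerella fall outside the rule for naming and were chosen after their values were seen.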

How the data were processed

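The authors deposited a table of read counts per ASV with its taxonomy, made from a BIOM file per the file headers. DNA came from feces by a commercial kit and went into SMRTbell libraries, per the labels' protocols. The submitters' processing notes name Subread without version or role. No source used here gives the denoiser, the primers or the taxonomy database. The lowest count above 0 was 2. Columns were matched to samples by name; 5 are spelled OVX+GES and were taken as OVX+GEX. An ASV without taxonomy (13 counts, 0.00432% of all) stayed out of the genus sums.

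Features reaching 3 counts in 5 or more libraries were tested in a fit over all libraries with edgeR 4.0.16 (TMM, quasi-likelihood F test, R 4.3.3), with Benjamini-Hochberg adjustment over all features at 0.05. Alternatives used limma 3.58.1 and DESeq2 1.42.0. Fits were tested on simulated data. Shares were compared by exact permutation, and correlations by 100000 permutations. No pair of libraries within a group came closer than a Bray-Curtis distance of 0.300, so none was taken as a duplicate. The genus, the lists and the rule for the 3 genera most and least alike were chosen with earlier results of these data known. With 1 ASV, the planned test of composition within the genus has no value. The ratio to Bacteroides and the relations without the partner genus in the total were added after seeing the data.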

Additional observations from a re-analysis of the deposited data

Results flagged for a closer look

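The log2 ratio of Akkermansia to Bacteroides in OVX replicate 1 was -2.67, against 1.14 to 2.49 in the other 4 OVX libraries. Its gap to the nearest of them took up 0.740 of the group's range, above Dixon's 95% limit for 5 samples. This library had the lowest Akkermansia share of the study (0.284%) and the highest Bacteroides share of its group (1.84%). Chance flags about 1 in 20 such groups, and 10 sets of values were looked at. Without this library the OVX to Sham difference in the ratio was 0.31 in place of -0.54.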

How the results depend on the processing

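Of 1048 values recomputed under alternatives, 0 passed the threshold (lowest adjusted p 0.119), 991 kept their direction and 57 reversed. These counts do not measure robustness. Of the values, 750 left out a single library, for the edgeR fits often one in neither group compared, and those could hardly move. The tests that flip the signs of the 5 same-numbered differences, and those of 3 against 3 libraries, could not reach 0.05. For the genus, OVX+GEX against Sham became 0.019 with TMMwsp, 0.026 with the stricter filter, 0.28 with limma, 0.10 with the replicate block and 0.30 without the deep libraries. With limma OVX+PBS became 0.26 against OVX and 0.062 against Sham, and without the deep libraries OVX against Sham became 0.15. For the ASV, OVX+GEX against OVX became -0.077 with the stricter filter, and limma gave 0.080 for OVX+PBS against OVX and 0.14 for OVX+GEX against Sham. Tested as shares on the centred log-ratio scale, OVX+PBS against OVX was 0.26, OVX+GEX against Sham 0.28 and OVX+PBS against Sham 0.062. With Duncaniella and Ligilactobacillus out of the total, the share in OVX+GEX differed from OVX by -0.108 points. Without the deep libraries the ratio to Bacteroides was 1.64 for OVX+FMT against Sham and 0.77 against OVX+GEX. The cause of these changes was not tested.

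Leaving out each library in turn, the genus log2 fold change ran from -0.68 to 0.38 for OVX against Sham, -0.072 to 0.61 for OVX+GEX against OVX, -0.57 to 0.15 for OVX+PBS against OVX, -0.29 to 0.52 for OVX+GEX against Sham and -0.78 to 0.059 for OVX+PBS against Sham. The ASV ran from -1.08 to 0.041, -0.32 to 0.59 and -0.87 to 0.21 for the first 3 of these and -0.019 to 0.95 for OVX+FMT against Sham. The share difference ran from -1.54 to 0.0476 points for OVX+GEX against Sham, -0.108 to 1.97 for OVX+FMT against Sham, -0.397 to 0.784 for OVX+GEX against OVX and -1.11 to 0.0661 for OVX+PBS against OVX. The ratio ran from -1.03 to 0.31 for OVX against Sham, -0.20 to 1.14 for OVX+GEX against Sham, and for OVX+FMT -0.61 to 0.58 against Sham, -0.43 to 1.12 against OVX and -1.26 to 0.14 against OVX+GEX. Of the 40 values that reversed here, 8 were without Sham replicate 3 and 5 without OVX replicate 1. For OVX+FMT against OVX+PBS the share difference ran from 1.62 to 3.46 points.

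The labels do not say whether the replicate numbers pair the libraries, and the values do not settle it. Same-numbered deviations correlated by -0.29 to 0.34, 18 of 50 over 0.1. With 5 numbers to match, 9 of 25 libraries correlated best with their own. All same-numbered values were above 0 for OVX+GEX with Sham, OVX and OVX+PBS, while every other pair of groups had values of both signs. With the replicate block OVX+FMT against OVX+PBS was 1.07 (edgeR adjusted p = 0.446).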
